A study of Mus musculus with 22 samples.

Results

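Late Posterior PSM cells are one of 25 cell types that the authors named in a time course of mouse gastruloids, aggregates of embryonic stem cells that elongate in culture and form several of the tissues of the trunk. PSM stands for presomitic mesoderm. The cells were taken as every cell whose type in the authors' cell table is Late Posterior PSM, which gave 5800 of 77674 cells in 18 sequencing lanes, and they are exactly the cells of 1 of the authors' expression clusters. Of these, 4604 carry the barcode of a single gastruloid, and they come from 104 of the 136 gastruloids with a barcode, 82 of which hold at least 10 such cells.

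All gastruloids were grown from 1 wild-type mouse embryonic stem cell line, E14Tg2A, at 300 cells per well, aggregated for 48 hours and then given 3 µM of CHIR99021. This compound blocks the kinase GSK3 and so turns on the Wnt pathway. Every group therefore shares the line, the genotype and the CHIR99021 exposure, and the groups differ in the day after aggregation and in the experiment. In MULTI-seq the cells of each gastruloid are tagged with a lipid-anchored DNA barcode before pooling, so that each gastruloid can be told apart within a lane. The first MULTI-seq experiment held 24 gastruloids at day 5, the second (pool B) days 4 and 4.5, and the third day 3, days 3.5 and 4 in a shared pool, and days 4.5 and 5 in a shared pool; an earlier experiment gave 1 lane each of pooled gastruloids at day 3 and day 4. The days of 1 pool were processed together in the same lanes, whereas different pools were not.

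The 5800 cells were spread as 1330 in the first MULTI-seq experiment, 450 in pool B and 356 in pool C of the second, 2 at day 3, 1595 at days 3.5 and 4 and 1666 at days 4.5 and 5 of the third, and 15 and 386 in the lanes of pooled day-3 and day-4 gastruloids. Pool C has no gastruloid call for these cells and enters no test. Their median depth ran from 10752 to 33226 unique molecular identifiers (UMIs, 1 per captured transcript) per cell across groups. Transcripts of mitochondrial genes took 1.65 to 2.11% of UMIs (group medians) in the third MULTI-seq experiment against 4.92 to 5.49% in the others, a gap that goes with every comparison between experiments. Cell barcodes found in more than 1 lane were 6 of the 5794 distinct barcodes of these cells, and 732 of 76935 over all cells. Gene levels are given as CPM, the UMIs of a gene scaled to a library total of 1000000, summed over the Late Posterior PSM cells of 1 gastruloid with at least 10 such cells, and the gastruloid is the replicate. Fold changes come from fits with TMM scaling, which sets most genes near 0, so they can differ from the ratio of the printed CPM. With library totals as the scale, an alternative chosen after seeing the data, the median gene moved by 0.07 on the log2 scale for day 4 against 3.5, by 0.03 for the other day steps within a pool, and by -0.19 and 0.20 between experiments at days 5 and 4.

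The presomitic mesoderm is the tissue on each side of the tail end of the embryo from which the somites, the blocks that give rise to vertebrae and trunk muscle, are cut off one after another. Its posterior end is fed by progenitors near the tail bud and is kept immature by Wnt and FGF signals, while retinoic acid made by the somites and anterior presomitic mesoderm promotes maturation; oscillating Notch targets such as Hes7 time the cuts. Cells that enter later also switch on Hox genes lying further along each Hox cluster, from paralogue group 1 at one end towards group 13 at the other, which gives each axial level its identity.

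The genes Msgn1, T, Dkk1, Mesp1 and Hoxa7, which all changed with the day in these cells, are shown by the 250 bases before their RefSeq transcription start (GRCm38.p6). These genes were picked because the letters of a DNA motif chosen for each gene occur there. Whether the motif acts on them in these cells was not tested. In the first 4 the capitals mark the TCF/LEF motif CTTTGAA, through which Wnt signals act, read on either strand, so that some stand as its reverse complement. In Hoxa7 they mark the CDX motif TTTATG in the same way, and CDX factors regulate Hox genes in the posterior embryo. The windows are Msgn1 at chr12:11208949-11209198 (minus strand, match 143 bases before the start), T at chr17:8434173-8434422 (plus strand, 235 bases), Dkk1 at chr19:30549497-30549746 (minus strand, 117 bases), Mesp1 at chr7:79793591-79793840 (minus strand, 73 bases) and Hoxa7 at chr6:52218574-52218823 (minus strand, 236 and 173 bases).
Msgn1: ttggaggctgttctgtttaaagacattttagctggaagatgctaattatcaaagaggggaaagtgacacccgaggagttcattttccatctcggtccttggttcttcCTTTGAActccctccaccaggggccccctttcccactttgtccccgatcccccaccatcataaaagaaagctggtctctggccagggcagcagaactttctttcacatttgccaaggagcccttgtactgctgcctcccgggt
T: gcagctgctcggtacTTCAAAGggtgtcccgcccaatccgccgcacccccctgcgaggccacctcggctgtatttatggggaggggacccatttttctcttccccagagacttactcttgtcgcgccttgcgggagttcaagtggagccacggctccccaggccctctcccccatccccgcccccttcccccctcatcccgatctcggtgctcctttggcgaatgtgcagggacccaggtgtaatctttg
Dkk1: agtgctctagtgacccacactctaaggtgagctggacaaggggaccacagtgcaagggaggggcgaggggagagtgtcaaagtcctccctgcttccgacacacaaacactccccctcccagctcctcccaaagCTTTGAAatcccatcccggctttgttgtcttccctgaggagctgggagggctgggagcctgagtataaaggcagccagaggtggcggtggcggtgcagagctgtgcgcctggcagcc
Mesp1: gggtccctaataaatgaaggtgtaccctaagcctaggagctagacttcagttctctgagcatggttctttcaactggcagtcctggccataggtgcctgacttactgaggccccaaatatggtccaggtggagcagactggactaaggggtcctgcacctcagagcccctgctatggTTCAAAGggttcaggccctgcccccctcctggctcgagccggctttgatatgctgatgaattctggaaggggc
Hoxa7: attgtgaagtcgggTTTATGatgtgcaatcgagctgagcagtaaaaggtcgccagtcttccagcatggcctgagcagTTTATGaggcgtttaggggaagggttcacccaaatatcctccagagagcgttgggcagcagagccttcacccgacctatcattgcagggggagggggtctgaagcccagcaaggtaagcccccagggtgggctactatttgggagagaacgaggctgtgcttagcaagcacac

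CTTTGAA was present in 1687 of the 32851 RefSeq promoters searched (250 bases before to 50 after the start), which is 5.14%. Among the 14 presomitic transcription factors of the list with a promoter in the table, 4 held it (Mesp1, Msgn1, Sp8 and T). In the Wnt list it was 1 of 15 and in the Notch list 1 of 18 (Dkk1 in both), near the share of all promoters. TTTATG was present in 3893 promoters (11.9%) and in 4 of 15 Hox promoters (Hoxa7, Hoxb8, Hoxd3 and Hoxd4). It was also present in 5 of the 14 presomitic factor promoters (35.7%: Hes7, Msgn1, Ripply2, Sp8 and T). The printed windows of Msgn1 and T hold it without capitals. Hoxa9 and Hoxd9, whose levels are described with Hoxa7, hold no TTTATG in this window. The CACGTG box, which HES and HEY repressors can bind, was present in 2349 promoters (7.15%) and in 3 of 18 genes of the Notch list (Adam10, Lfng and Nrarp). A match describes the letters alone.

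The label was first held against its 4 markers, in CPM over all cells of a type. Tbx6, the T-box factor that commits cells to presomitic mesoderm, stood at 155 in Late Posterior PSM cells of the third MULTI-seq experiment and at 134 in the next highest type, and it was also highest in these cells in the other 3 experiments (160 to 201, against 49.6 to 137 in the next type). Hes7, the clock gene that represses its own transcription, stood at 329 against 276 in the third experiment and was highest in these cells in all 4. Msgn1, a Wnt target that drives cells out of the progenitor state, was low (1.03 to 9.37) and highest in these cells only in the first and second MULTI-seq experiments. In the third experiment it stood at 9.37 against 13 in another type. Hoxb9 stood at 118 to 219 and was higher in another type (289 to 360) in every experiment, so it does not mark these cells alone.

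Set beside the nearest types of the third experiment, Late Posterior PSM cells combined posterior markers with late Hox genes. Hoxb9 stood at 136 in them, at 4.1 in Early Posterior PSM, 75.3 in Late Anterior PSM and 219 in neuromesodermal progenitors, the cells that supply both spinal cord and presomitic mesoderm. Hoxc9 stood at 39.2, against 0.1 in Early Posterior PSM and 119 in the progenitors. T (Brachyury), which marks streak, tail bud and progenitors, was at 87.5, below the progenitors (254) and Early Posterior PSM (160), and above Late Anterior PSM (12.8).

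Fst, which encodes the activin antagonist follistatin, was at 93 against 569 in Early Posterior PSM. Aldh1a2, the enzyme that makes retinoic acid in trunk mesoderm, was at 240 against 717 in Early Posterior and 1050 in Early Anterior PSM. Tcf15 (paraxis), needed for somites to become epithelial, was at 62.5, far under the 787 of Late Anterior PSM. Posterior signals were present too, with Fgf8 at 190 (553 in the progenitors) and Rspo3, a secreted amplifier of Wnt signalling, at 1066 (834 in the progenitors). These levels describe a cluster built on the same genes and carry no test.

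Late Posterior PSM cells were rare before day 4 and made up 8.30 to 13% of a gastruloid's cells on average from then on. In the third MULTI-seq experiment 1 of 24 gastruloids had any at day 3. At day 3.5 they were 2.38 ± 2.96% of a gastruloid's cells (SD, n = 16; lowest 0, median 1.61, highest 10.8%), and at day 4 they were 8.84 ± 5.36% (n = 16; 1.70, 8.84 and 21.2%). The ranges overlap, yet all 16 day-4 gastruloids lay above the day-3.5 median. The difference was 6.45 percentage points (two-sided permutation test with 100000 resamples, adjusted p = 0.00024 over 20 cell types by Benjamini-Hochberg). Among presomitic and somite cells alone (6 types, gastruloids with at least 30 such cells) the share rose from 9.17 ± 5.61% (n = 8) to 18.3 ± 6.80% (n = 16), a difference of 9.10 points (permutation test, adjusted p = 0.00467), with 15 of 16 above the day-3.5 median. The authors classed gastruloids by cell composition, and the classes were unevenly spread over these days, with 10 neural and 6 mesodermal gastruloids at day 3.5 and 2 and 14 at day 4. Mesodermal gastruloids had 1.86 to 10.8% of Late Posterior PSM cells (median 3.97) at day 3.5 and 1.70 to 21.2% (median 9.31) at day 4, and neural ones 0 to 2.27% (median 0.545) and 1.75 to 2.05%. The step within a class was not tested.

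Between days 4.5 and 5 the share of all cells did not differ beyond its spread. It was 11 ± 9.45% at day 4.5 (n = 16; lowest 0, median 9.55, highest 29.7%) and 8.63 ± 3.95% at day 5 (n = 16; 1.93, 8.72 and 16.7%), a difference of -2.36 points (permutation adjusted p = 0.617). Among presomitic and somite cells it fell from 25.7 ± 10.8% (n = 14; 9.30, 27.4 and 45.5%) to 17.6 ± 4.99% (n = 16; 11.8, 16.5 and 32.1%). That difference was -8.01 points (permutation adjusted p = 0.0150), and 15 of 16 day-5 gastruloids lay below the day-4.5 median. The second experiment showed no step past the test between day 4 (8.89 ± 7.90%, n = 11) and day 4.5 (8.30 ± 6.06%, n = 12; permutation adjusted p = 0.841).

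At day 5 the share differed between experiments among presomitic and somite cells. It was 32.8 ± 8.70% in the first MULTI-seq experiment (n = 22; lowest 16.1, median 32.7, highest 49.3%) and 17.6 ± 4.99% in the third, 15.2 points lower (difference -15.2, permutation adjusted p = 3e-05; the unadjusted p of 1e-05 is the smallest that 100000 resamples can give), with all 16 gastruloids of the third experiment below the median of the first. Of all cells the shares were 13 ± 8.04% (n = 24) and 8.63 ± 3.95%, which did not pass (adjusted p = 0.163 by the same permutation test). All of these gastruloids were classed by the authors as mesodermal, intermediate or neural. In the first experiment the median share was 19.2% in 7 mesodermal, 15.0% in 9 intermediate and 5.14% in 8 neural gastruloids, and in the third it was 10.7% in 8, 8.89% in 4 and 3.68% in 4. The classes rest on cell composition, so this order is a description. In the unreplicated lanes of pooled gastruloids the share was 0.491% at day 3 (exact binomial 95% interval 0.275 to 0.808%) and 15.8% at day 4 (14.4 to 17.3%).

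**Figure D1:**
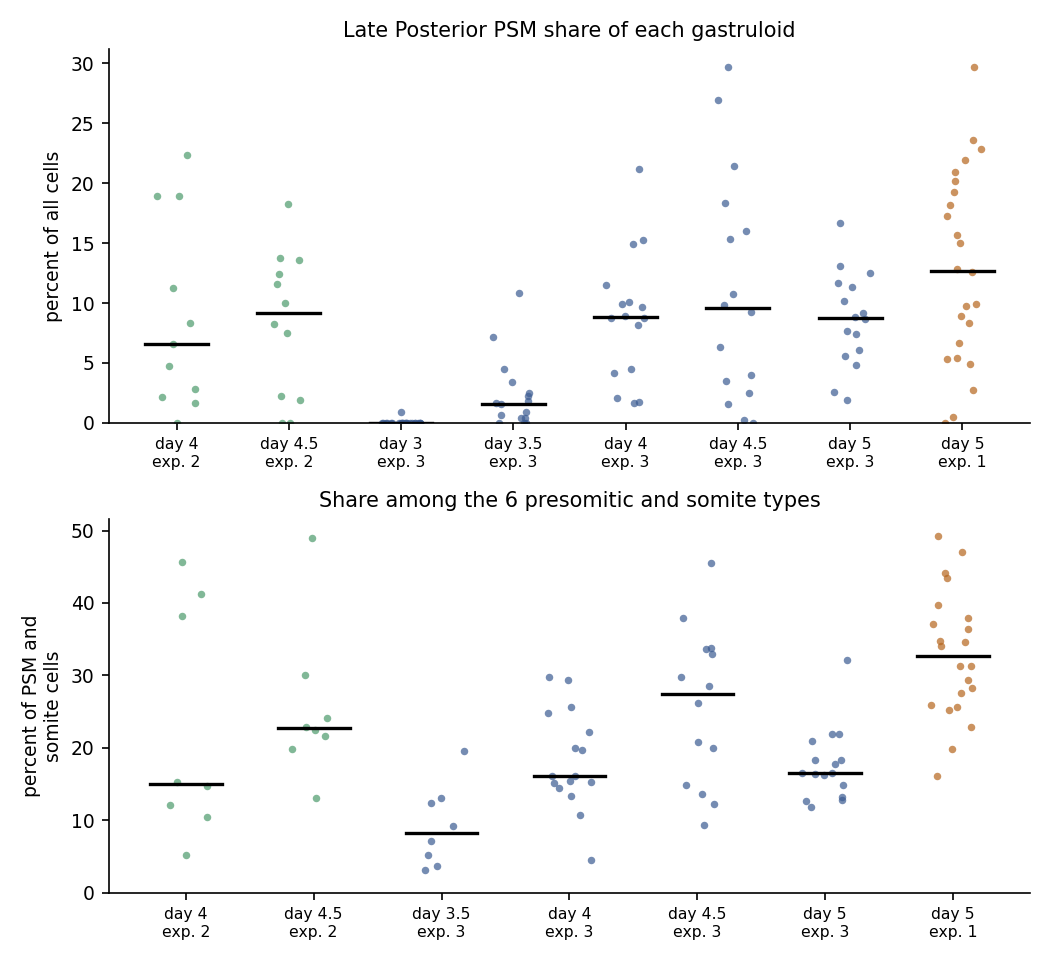
Share of Late Posterior PSM cells per gastruloid by experiment and day, in percent of all cells (top) and of presomitic and somite cells (bottom). The bottom panel holds gastruloids with at least 30 such cells. Points are gastruloids and bars are medians. In the third experiment the share of all cells is low at day 3.5 (median 1.61%) and higher at day 4 (8.84%). At day 5 the bottom panel shows the first experiment (median 32.7%) above the third (16.5%).

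The authors also assigned each cell to the most similar tissue of an embryo atlas. Of the 5800 cells, 2022 (34.9%) were assigned to Intermediate mesoderm, 1855 to Presomitic mesoderm and 1814 to Somitic mesoderm. Matched atlas stages also shifted with the day: stage 8.0 held 79.6% of 147 cells at day 3.5, 35.3% of 1232 at day 4, 20.4% of 543 at day 4.5 and 8.52% of 939 at day 5 of the third MULTI-seq experiment, while stage 8.75 held 46.5% at day 5. The assigned tissues moved as well. In that experiment 90.1 ± 12.6% of a gastruloid's cells went to Intermediate mesoderm at day 3.5 (SD, n = 4), 37.8 ± 11.6% at day 4 (n = 14), 23.7 ± 11.1% at day 4.5 (n = 12) and 9.73 ± 4.15% at day 5 (n = 16). The Presomitic share moved the other way, from 6.78 ± 8.04% through 25.5 ± 6.79% and 40.0 ± 3.61% to 49.6 ± 7.76%. In the first experiment, by contrast, 41.5 ± 11.9% of the day-5 cells went to Intermediate mesoderm (n = 22). Stage 8.0 held 35.1% of the 1330 day-5 cells of the first experiment, and stage 8.75 held 18.3%.

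The defining markers of that atlas tissue were near 0. Osr1 and Pax2, which mark intermediate mesoderm, the source of the kidneys, stood at 1.42 and 0.255 CPM in the 964 cells assigned to it in the third experiment. Beside the 1119 cells assigned to Presomitic mesoderm, with the days of that experiment mixed, they stood higher in Fst (205 against 43.3), T (126 against 72.9) and Aldh1a2 (352 against 162) and lower in Hoxb9 (68.7 against 160) and Hoxc9 (9.58 against 59.7). At the single day 5 of the first experiment the same 2 assignments had T at 65.1 and 67.2, Fst at 57.3 and 31.9, and Hoxc9 at 55.5 and 117. These values carry no test.

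**Figure D2:**
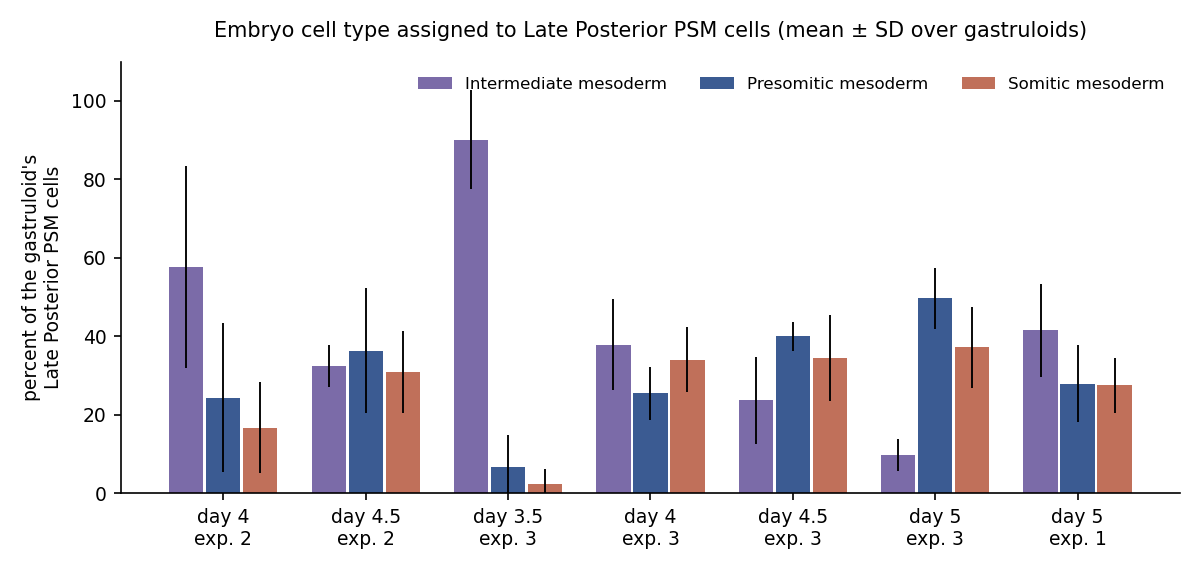
Share of each gastruloid's Late Posterior PSM cells that the authors assigned to Intermediate, Presomitic or Somitic mesoderm of the embryo atlas, in percent, by experiment and day; marks are means over gastruloids and error bars are SD. In the third experiment the Intermediate share falls from 90.1% at day 3.5 to 9.73% at day 5 while the Presomitic share climbs from 6.78% to 49.6%.

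From day 3.5 to day 4 of the third MULTI-seq experiment, T, Fst and the pluripotency gene Pou5f1 fell in Late Posterior PSM cells, and Foxc1, Nrarp, Hoxb9 and Hmga2 rose. Over all 9631 genes tested, 917 passed an adjusted p of 0.05 (9.52%), of which 349 rose (3.62%) and 568 fell (5.9%). With library totals as the scale 605 rose (6.28%) and 286 fell (2.97%). The comparison sets 14 day-4 gastruloids against only 4 at day 3.5, since 12 of the 16 at that day had fewer than 10 of these cells. Day 3.5 therefore rests on gastruloids chosen by having enough cells of this type. All 4 and all 14 were classed by the authors as mesodermal, so the comparison covers no neural gastruloid.

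Among 18 presomitic transcription factors tested, 3 rose and 5 fell by edgeR with TMM scaling, against 3 and 4 with library totals and 5 and 4 by DESeq2. T stood at 104, 168, 181 and 205 CPM in the 4 day-3.5 gastruloids and at 64.5 to 110 (median 89.5) in the 14 at day 4, so the groups touch only at the lowest day-3.5 gastruloid. It fell by 0.88 on the log2 scale (SE 0.14, edgeR's quasi-likelihood test with Benjamini-Hochberg adjustment, adjusted p = 8.9e-05). Foxc1, a forkhead factor and anterior presomitic marker, stood at 71.2, 69.6, 84.1 and 39.0 at day 3.5 and at 97.3 to 187 (median 137) at day 4. These groups did not overlap, and the log2 change was 0.79 ± 0.16 (SE, adjusted p = 0.0021).

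Msgn1 stood at 24.5, 18, 25.2 and 17.6 and then at 2.89 to 19.6 (median 12.7), a fall of 1.00 on the log2 scale (SE 0.27, adjusted p = 0.017). Its call was lost without lane B or C, or without day-3.5 gastruloid 1 or 3. Leaving out lane A or B also left only 3 of the 4 day-3.5 gastruloids with enough cells. Mesp1, listed here with the anterior presomitic markers, rose from 7.41, 4.49, 4.81 and 3.90 to 8.15 to 46.2 (median 24.3). Its log2 change was 2.02 ± 0.64 (edgeR adjusted p = 0.042), a call lost without lane A, B or D or any 1 of the 4 day-3.5 gastruloids. The progenitor gene Nkx1-2 (change -1.67) and the streak gene Mixl1 (-1.35) also fell, Mixl1 only while lane B was kept. Tbx6 and Hes7, markers of the label, changed by -0.15 and 0.07 and did not pass (adjusted p = 0.32 and 0.69). Every gene test here is conditional on the authors' naming of the cells, which used expression. Steady marker levels, and changes of genes that part this type from its neighbours, can be bounded by that naming.

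**Figure D3:**
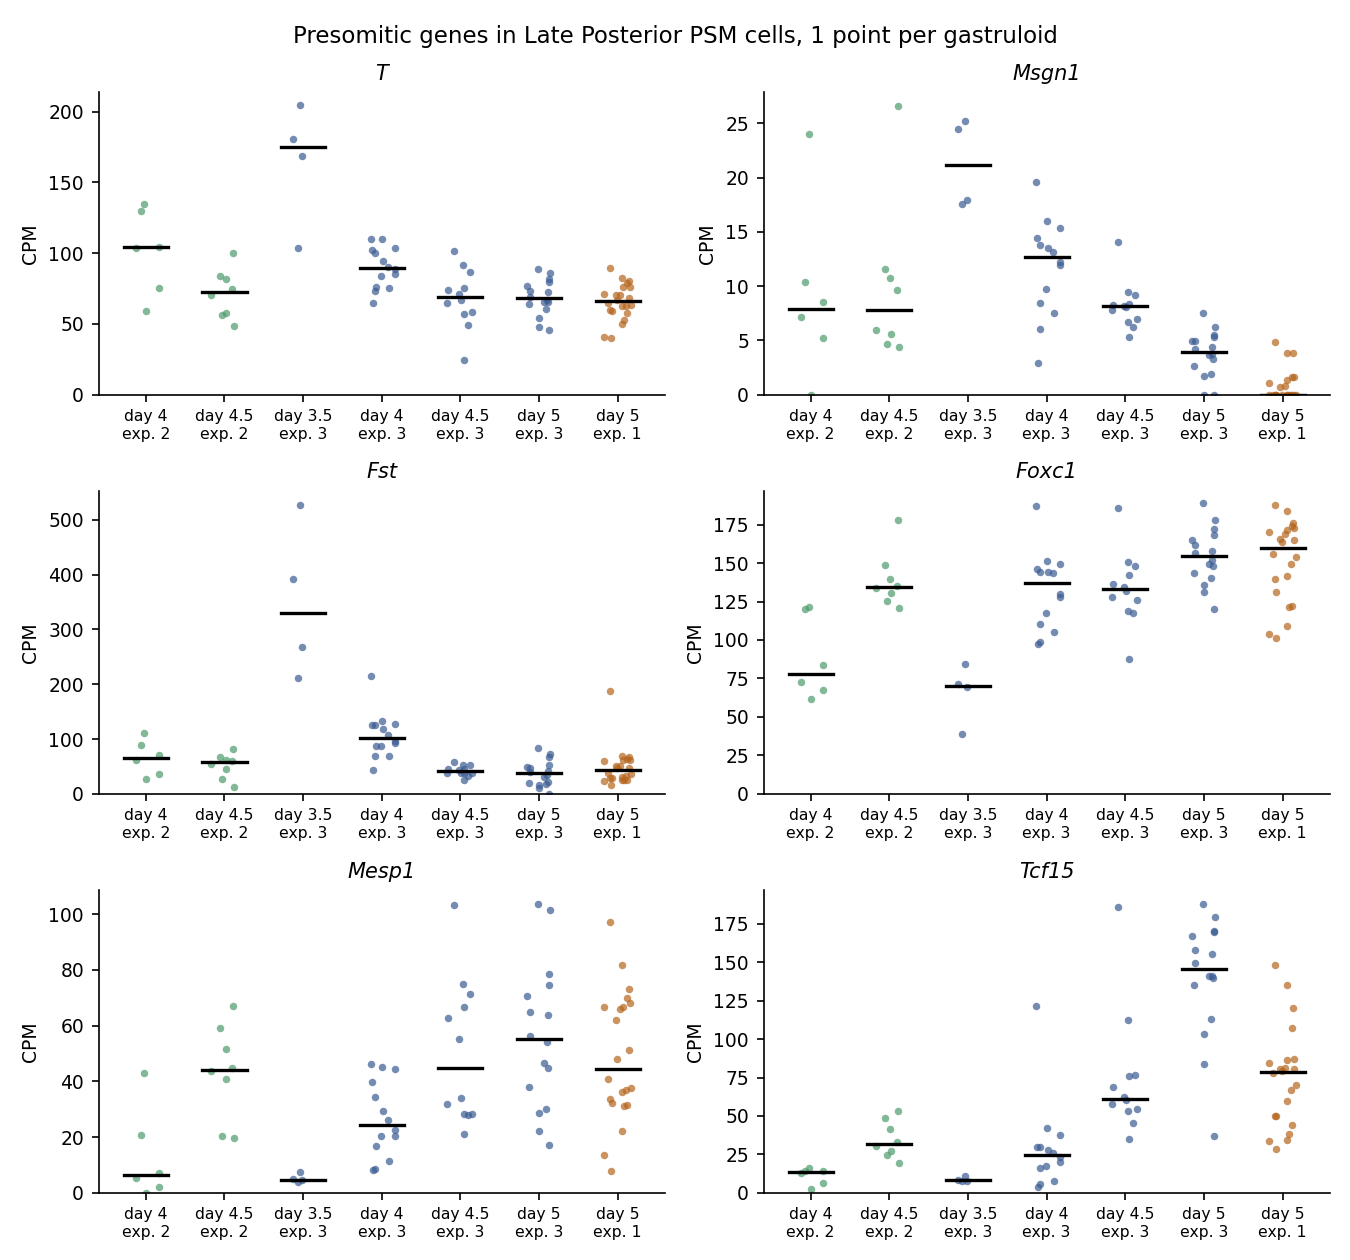
Levels of T, Msgn1, Fst, Foxc1, Mesp1 and Tcf15 in Late Posterior PSM cells, in CPM, by experiment and day; each point is a gastruloid with at least 10 such cells. In the third experiment 3 of the 4 day-3.5 gastruloids lie above every day-4 gastruloid in T and in Fst, while Foxc1 lies above its day-3.5 range (39.0 to 84.1) in every day-4 gastruloid.

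Signalling genes moved in small numbers. Of 13 genes of the TGF-beta and BMP list, 1 rose and 2 fell with TMM scaling and by DESeq2, and 2 rose and 1 fell with library totals. Fst stood at 211, 393, 269 and 527 at day 3.5 and at 43.1 to 216 (median 102) at day 4. Only the lowest day-3.5 gastruloid lay within the day-4 range, and it fell by 1.73 on the log2 scale (SE 0.21, adjusted p = 3.7e-06). Bmp2 rose (2.39 ± 0.67, adjusted p = 0.021), a call lost without day-3.5 gastruloid 3 or 4 (in the order given).

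Of 21 Notch genes, 1 rose and 1 fell, near the shares over all genes (3.62% higher and 5.9% lower). With library totals 3 rose and 1 fell, and by DESeq2 2 and 1. Nrarp, a Notch target that feeds back on the pathway, stood at 76.3, 78.6, 75.7 and 52.7 and then at 78.4 to 186 (median 146), with 1 day-4 gastruloid reaching down to the day-3.5 values (log2 change 0.92 ± 0.20, adjusted p = 0.0026). Of 20 Wnt genes, 1 rose and 3 fell. The receptor gene Fzd2 rose (0.85 ± 0.18, adjusted p = 0.0021). Dkk1, a secreted Wnt antagonist and Wnt target, stood at 29.6, 20.2, 19.8 and 7.80 and then at 1.10 to 16.8 (median 6.37), and fell by 1.59 (SE 0.37, adjusted p = 0.0053), a call lost without day-3.5 gastruloid 1.

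Of 17 FGF genes 0 rose in edgeR's quasi-likelihood test (1 at an unadjusted p under 0.05, 0 by DESeq2) and 2 fell, the feedback phosphatase Dusp4 (-1.13) and the feedback inhibitor Spred2 (-0.34); the Dusp4 call was lost without lane B. Of 11 retinoic acid genes 2 rose (4 with library totals, 3 by DESeq2) and 0 fell (0 also at an unadjusted p under 0.05 and by DESeq2). One was Crabp1, which binds retinoic acid in the cytoplasm, at 214, 117, 171 and 72.2 and then at 175 to 325 (median 267; log2 change 0.70 ± 0.15, adjusted p = 0.0031, lost without lane B). Aldh1a2 stood at 319, 287, 180 and 144 and then at 223 to 503 (median 393), and its change of 0.58 ± 0.20 did not pass (adjusted p = 0.059), though it did with library totals as the scale (0.65, adjusted p = 0.029), where the Spred2 call was lost.

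Of 25 Hox genes 4 rose and 1 fell in this first step. Hoxb9 stood at 51.1, 31.4, 67.3 and 54.6 and then at 61.2 to 155 (median 120), which overlaps 1 day-3.5 gastruloid (0.96 ± 0.22, adjusted p = 0.0055). Hoxd4 rose as well (0.58 ± 0.12, adjusted p = 0.0015), and Hoxb4 and Hoxb6 rose by less (0.35 and 0.46), with calls that several left-out lanes or gastruloids ended. Among the cells assigned to Intermediate mesoderm alone, the change of Hoxb9 was 0.37 (adjusted p = 0.217).

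Genes that time development also moved: of 15 tested, 2 rose and 2 fell, against 3 and 2 with library totals and 2 and 3 by DESeq2. Pou5f1 (Oct4), the pluripotency factor, stood at 54.8, 94.3, 57.7 and 109 and then at 4.79 to 48.1 (median 20.3), with no overlap (log2 change -1.87 ± 0.28, adjusted p = 5.2e-05). Hmga2, a chromatin protein gene repressed by let-7 microRNAs, stood at 339, 307, 363 and 252 and then at 461 to 711 (median 566), again with no overlap (0.74 ± 0.10, adjusted p = 1.4e-05). Lin28a, which blocks let-7 maturation, fell by 0.44 (SE 0.09) and Prtg rose by 0.30 (SE 0.06), both calls lost without lane B.

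Glycolysis genes went down more often than up in this step, with 1 rise and 5 falls among 19. Gapdh stood at 1764, 1863, 1946 and 1929 and then at 1511 to 1684 (median 1635), without overlap (-0.28 ± 0.04, adjusted p = 1.1e-05). Eno1 fell by 0.46 (SE 0.06) and Gpi1 by 0.52 (SE 0.10), while the lactate exporter Slc16a3 rose (1.55 ± 0.37), a call lost without lane B or without day-3.5 gastruloid 1 or 3. Of 21 adhesion genes 3 rose and 1 fell, among them the protocadherin Pcdh19 (0.61 ± 0.14, lost without lane B) and Epcam, an epithelial surface protein (-1.26 ± 0.31, lost without day-3.5 gastruloid 4). Of 22 cell cycle genes 1 rose and 2 fell, near the shares over all genes (3.62% higher and 5.9% lower). With library totals 2 rose and 0 fell.

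Among genes on no list, the secreted matrix protein gene Smoc1 stood at 33.4, 24.7, 36.0 and 11.7 and then at 61.5 to 130 (median 94.8; 1.48 ± 0.23, adjusted p = 8.0e-05), while S100a10 fell from 77.8, 139, 268 and 386 to 30.4 to 85.7 (median 53.8; -1.91 ± 0.23, adjusted p = 3.3e-06).

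Markers of other cell types moved in the same step. The summed level of 5 neuron markers, of which 4 were detected and Dcx was at 0, went from 124 to 271 at day 3.5 (median 158) to 42.5 to 128 at day 4 (median 88.4), carried by Stmn2. The germ cell list went from 56.3 to 111 (median 76.3) to 4.79 to 48.1 (median 20.5), carried by Pou5f1, with its defining gene Dppa3 at 0 throughout. The anterior presomitic list went from 44.9 to 97.3 (median 91.2) to 125 to 292 (median 188), and the somite list from 154 to 329 (median 244) to 235 to 535 (median 426). Their part in these results was not tested. When the fit was limited to cells assigned to Intermediate mesoderm (4 against 12 gastruloids, 253 of 8102 genes called), T (-0.62), Fst (-1.16), Foxc1 (0.64), Nrarp (0.93), Hmga2 (0.48), Pou5f1 (-1.10) and S100a10 (-1.59) still passed. Of the 51 genes followed in both fits, 31 passed. Among those that did not were Hoxb9, given above, Crabp1 (0.49, adjusted p = 0.105), Pcdh19 (0.52, adjusted p = 0.0592), Epcam (-0.67, adjusted p = 0.235), Hoxb4 (0.15, adjusted p = 0.541), Hoxb6 (0.28, adjusted p = 0.371), Prtg (0.16, adjusted p = 0.238) and Spred2 (-0.14, adjusted p = 0.650). In the unreplicated lanes of pooled gastruloids T was at 253 at day 3 (15 cells; exact Poisson 95% interval 188 to 333, counting error only) and 115 at day 4 (386 cells; 106 to 124), Fst at 187 (132 to 258) and 65.5 (59.0 to 72.5), and Hoxb9 at 45.5 (20.8 to 86.4) and 143 (134 to 154).

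From day 4 to day 4.5 in the second MULTI-seq experiment fewer genes passed. In 6 against 8 gastruloids, 71 of 6275 genes were called (1.13%), with 33 higher (0.526%) and 38 lower (0.606%), or 37 and 19 with library totals as the scale. Of 11 presomitic factors 3 rose and 1 fell. Tcf15 ranged from 2.40 to 16.4 (median 13.4) at day 4 and from 19.3 to 53.3 (median 31.7) at day 4.5, with no overlap (log2 change 1.74 ± 0.30, adjusted p = 6.9e-04). Foxc1 went from 61.3 to 121 (median 77.9) to 121 to 178 (median 134), the groups meeting at 121 (0.68 ± 0.12, adjusted p = 0.0018).

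Mesp1 rose (1.84 ± 0.36, adjusted p = 0.0040) and T fell (-0.55 ± 0.14, adjusted p = 0.048), but both calls were lost without lane 2, which leaves 5 day-4 gastruloids, and that of T also with library totals as the scale (-0.52, adjusted p = 0.077). Without lane 3 no fit was possible. DESeq2 did not call Tcf15, Mesp1 or T. The Intermediate-assigned share of the cells went from 57.6 ± 25.8% (SD, n = 6) at day 4 to 32.3 ± 5.36% (n = 8) at day 4.5. At day 4.5 the Presomitic share was the larger one (36.4%), but Intermediate mesoderm was the most frequent assigned tissue over all cells. A fit limited to Intermediate-assigned cells held only 4 against 4 gastruloids and 4592 genes. In it edgeR called 1 gene, Nrarp, which was also the 1 of 21 followed genes to pass. Foxc1 (0.39, adjusted p = 0.842), T (-0.10, adjusted p = 0.970) and Hoxb9 (0.36, adjusted p = 0.857) did not pass there.

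Nrarp, 1 of 15 Notch genes, went from 77.8 to 118 (median 94.8) to 125 to 181 (median 141), without overlap (0.60 ± 0.10, adjusted p = 6.9e-04). Of 20 Hox genes 1 rose and 1 fell. Hoxb9 went from 55.7 to 116 (median 85.2) to 113 to 164 (median 144), with ranges that barely overlap (0.74 ± 0.12, adjusted p = 2.7e-04). Hoxb1, at the early end of its cluster, fell (-0.39 ± 0.10, adjusted p = 0.032, lost without lane 2 and with library totals). Crabp1, 1 of 7 retinoic acid genes and the only one called, went from 125 to 249 (median 169) to 97.6 to 127 (median 104; -0.64 ± 0.11, adjusted p = 5.6e-04, lost without lane 2). Neither edgeR nor DESeq2 called any gene of the Wnt, FGF, TGF-beta, glycolysis or adhesion lists in this experiment. At an unadjusted p under 0.05 the counts were 2 higher of 15 Wnt genes, 1 higher and 1 lower of 14 FGF genes, 0 of 8 TGF-beta genes, 7 higher of 15 glycolysis genes, and 3 higher and 1 lower of 15 adhesion genes.

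Off the lists, S100a10 went from 31.3 to 108 (median 64.2) to 9.31 to 46.2 (median 20.8; -1.62 ± 0.24, adjusted p = 8.8e-05). Its relative S100a11 fell too (-1.07 ± 0.11, adjusted p = 2.1e-07), and the planar polarity gene Prickle1 rose (1.30 ± 0.21, adjusted p = 4.8e-04, not called by DESeq2).

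Between days 4.5 and 5 of the third MULTI-seq experiment Hoxa9, Hoxb9, Hoxc9 and Hoxd9 rose in Late Posterior PSM cells. The retinoic acid genes Aldh1a2 and Crabp1 fell, and 10 of 18 glycolysis genes rose. In 12 against 16 gastruloids 538 of 7818 genes passed (6.88%), 262 higher (3.35%) and 276 lower (3.53%). With library totals as the scale 362 were higher (4.63%) and 172 lower (2.2%). The authors' classes differed between these days. At day 4.5 the 16 gastruloids with a share were 9 mesodermal and 7 neural, and 12 of the 16 had enough cells for this fit. The 16 at day 5 were 8 mesodermal, 4 intermediate and 4 neural. Class was not a term in the fit, and its part was not tested. Of 26 Hox genes, 9 rose and 3 fell, and all 4 genes of paralogue group 9 were among the rises (median log2 change 1.39). Of 10 genes of groups 5 to 8, 4 rose and 1 fell, and of 12 genes of groups 1 to 4, 1 rose and 2 fell.

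Hoxc9 ranged from 8.26 to 41.2 (median 32.3) at day 4.5 and from 43.8 to 148 (median 101) at day 5, so that every day-5 gastruloid lay above every day-4.5 one (log2 change 1.86 ± 0.14, adjusted p = 8.5e-15). Hoxa9 went from 0 to 14.8 (median 3.61) to 12.8 to 86.5 (median 40.4), with 2 day-4.5 gastruloids at 0 (2.38 ± 0.30, adjusted p = 1.4e-07). Hoxa7, whose upstream sequence is printed above, went from 17.7 to 41.2 (median 26.4) to 44.3 to 86.6 (median 58.8), without overlap (1.18 ± 0.11, adjusted p = 9.9e-12).

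Hoxc6 and Hoxd9 showed smaller steps. Hoxc6 went from 8.26 to 59.7 (median 29.7) to 52.9 to 111 (median 72.2), with a small overlap (1.07 ± 0.12, adjusted p = 8.1e-09). Hoxd9 went from 37.2 to 103 (median 61.7) to 82.9 to 185 (median 130; 0.92 ± 0.11, adjusted p = 3.6e-08). Hoxd8 (0.56) and Hoxc8 (0.43) rose by less.

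Hoxb9, already at 111 to 175 (median 144) at day 4.5, reached 128 to 234 (median 179), and its change of 0.22 ± 0.07 (adjusted p = 0.037) was lost without lane A or C. Hoxb4 rose by 0.26 (SE 0.06). Hoxb1 (-0.29) and Hoxa2 (-0.40), both at the early end, fell, but the Hoxb1 call was lost without lane C or with library totals and the Hoxa2 call without lane A or C. Hoxb6, in the middle of its cluster, fell as well (-0.44 ± 0.12, edgeR adjusted p = 0.011), a call lost when any 1 of the lanes was left out. Each fit without a lane held 9 in place of 12 day-4.5 gastruloids. Hoxc10, 1 group further along, was 0 in 7 of the 12 day-4.5 gastruloids and reached 22.7 at day 5 (median 2.42), with 4 of 16 still at 0. It passed the filter on low counts in no single day step. Its change over all days within pools is not given, since it depends on the many 0 values and DESeq2 did not call it. The fit over all days within pools called 1276 of 9440 genes (13.5%), 5.67% higher and 7.85% lower (9.38 and 4.15% with library totals).

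**Figure D4:**
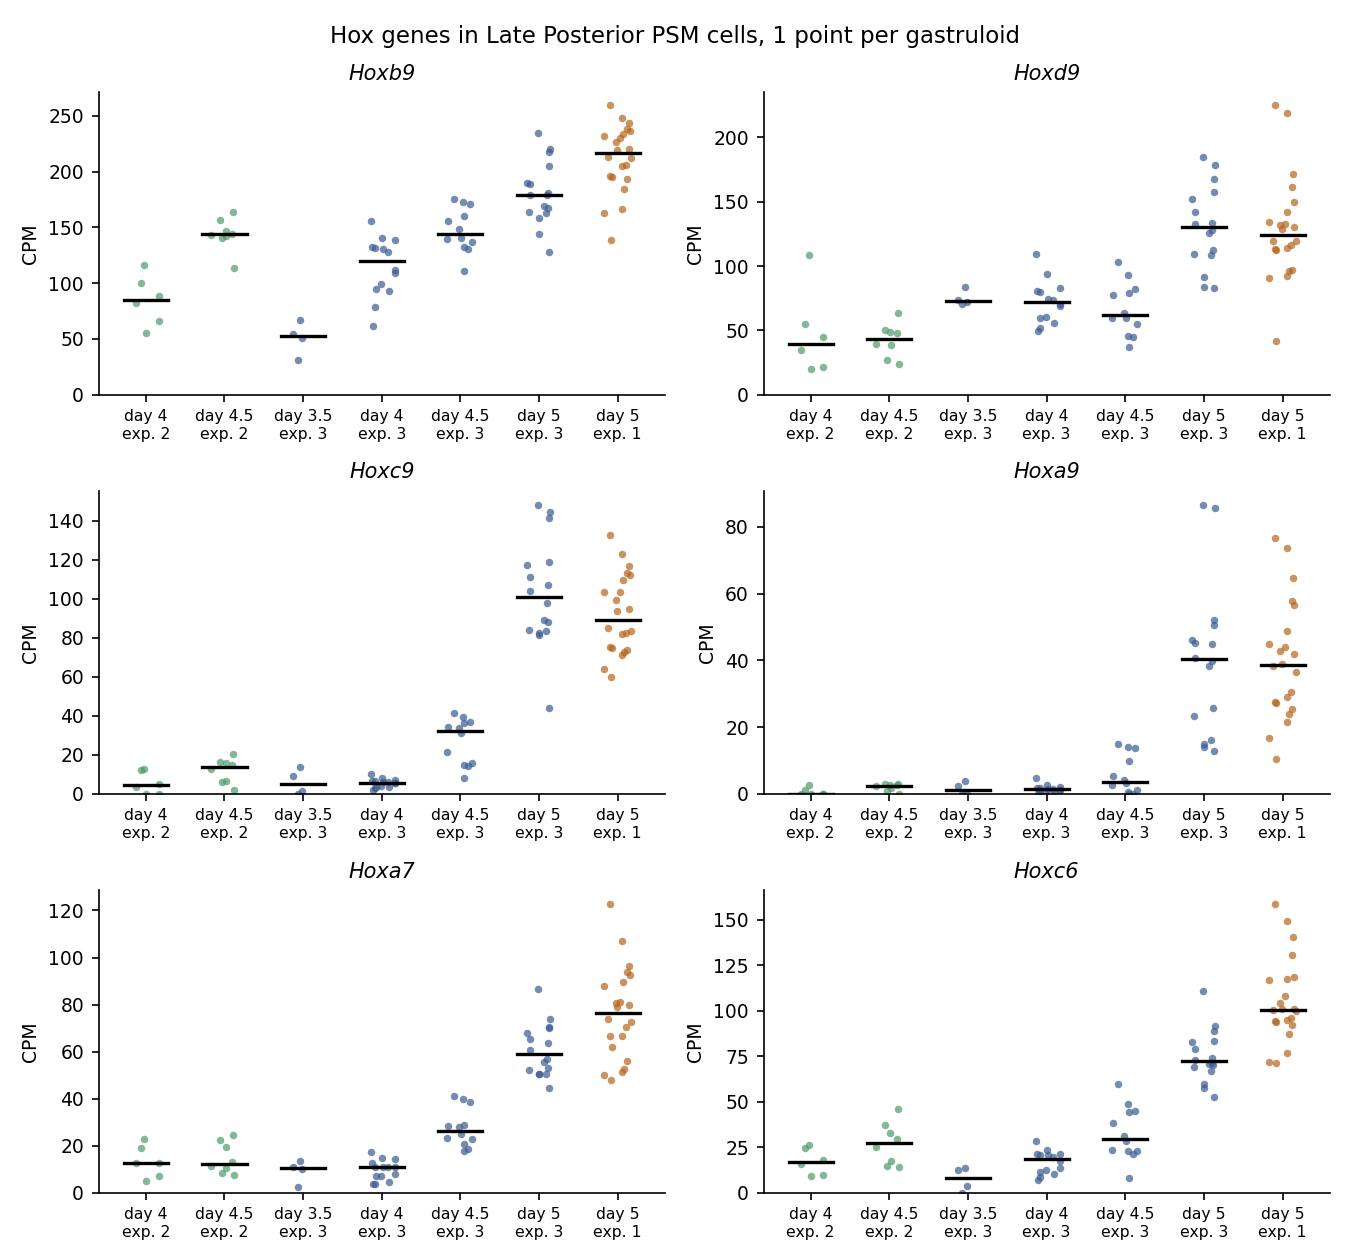
Levels of Hoxb9, Hoxd9, Hoxc9, Hoxa9, Hoxa7 and Hoxc6 in Late Posterior PSM cells, in CPM, by experiment and day; each point is a gastruloid with at least 10 such cells. In the third experiment Hoxc9 and Hoxa7 at day 5 lie wholly above day 4.5, whereas Hoxb9 is already at a median of 120 at day 4.

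Of 13 presomitic factors 4 rose and 1 fell. Tcf15 went from 35.0 to 186 (median 61.3) to 37.0 to 188 (median 145), with wide overlap (1.08 ± 0.14, adjusted p = 2.5e-07). Foxc2 went from 17.5 to 64.7 (median 42.5) to 45.7 to 91.5 (median 66.6; 0.59 ± 0.10, adjusted p = 4.3e-05). Meox1, a homeobox gene of the somites, rose too (1.00 ± 0.25, adjusted p = 0.0061). T, Tbx6 and Hes7 changed by -0.09, -0.19 and -0.08 and did not pass (adjusted p = 0.65, 0.12 and 0.56).

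Of 18 Notch genes 4 rose and 0 fell (0 also at an unadjusted p under 0.05 and by DESeq2). Hey1, a Notch-driven repressor, went from 3.17 to 24.8 (median 12.1) to 18.4 to 43.3 (median 27.2), with a partial overlap (1.22 ± 0.14, adjusted p = 8.1e-09). Nrarp went from 108 to 242 (median 189) to 155 to 268 (median 230; 0.30 ± 0.07, adjusted p = 0.0021). The calls of Notch3 and Hes1 were lost without 1 lane or another.

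Of 14 FGF genes, 6 fell and 0 rose in edgeR's test (1 at an unadjusted p under 0.05, 0 by DESeq2). Fgf8, the ligand that keeps posterior cells immature, went from 173 to 239 (median 195) to 143 to 227 (median 160; -0.30 ± 0.06, adjusted p = 6.2e-04), with overlapping ranges. It was the 1 FGF gene whose call held without each lane, since Spred2, Fgf3 and Fgfr1 were lost without lane B or C, Etv1 without A or C and Etv4 without any. With library totals 4 of the 14 fell, without Etv4 and Fgfr1. Of 14 Wnt genes 2 rose and 3 fell. Lef1, which carries Wnt signals to DNA, went from 326 to 479 (median 409) to 290 to 409 (median 340; -0.24 ± 0.04, adjusted p = 1.7e-04). Rspo3 fell by 0.21 (SE 0.04, adjusted p = 6.4e-04, lost without lane B), and Wnt5a rose by 0.35.

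Of 9 retinoic acid genes 2 rose and 3 fell. Crabp1 went from 117 to 280 (median 213) to 43.9 to 148 (median 102; -1.08 ± 0.10, adjusted p = 1.8e-11). Aldh1a2 went from 119 to 288 (median 187) to 16.9 to 204 (median 67.4; -1.14 ± 0.16, adjusted p = 2.0e-06). Stra6, the retinol uptake receptor, rose (0.73 ± 0.15, adjusted p = 0.0011), so genes of the one pathway moved in both directions.

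Of 18 glycolysis and hypoxia genes 10 rose by edgeR and 5 by DESeq2, and 0 fell by either or at an unadjusted p under 0.05, with a median log2 change of 0.26 (0.00 over all genes). Slc2a1, the glucose transporter GLUT1, went from 21.1 to 72.9 (median 34.9) to 26.3 to 78.0 (median 55.9), with wide overlap (0.71 ± 0.12, adjusted p = 4.2e-05). Pfkl rose by 0.41 and Ldha, which makes lactate, by 0.25 (SE 0.05, adjusted p = 0.0018). Slc16a3 rose again (0.63 ± 0.16, adjusted p = 0.0067).

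Of 14 timing genes 2 rose and 7 fell. Dnmt3b, a DNA methyltransferase, went from 34.9 to 61.9 (median 46.1) to 19.2 to 48.2 (median 31.0; -0.64 ± 0.09, adjusted p = 3.1e-06). Prtg (-0.44 ± 0.06) and the Lin28 partner Trim71 (-0.42 ± 0.06) fell as well, and the Lin28a call was lost without lane A. Cdkn1c, a cell cycle inhibitor, was the only cell cycle gene of 22 called with TMM scaling and rose from 52.8 to 107 (median 78.5) to 81.3 to 288 (median 145; 0.97 ± 0.15, adjusted p = 5.1e-06).

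Of 19 adhesion and matrix genes 4 rose and 2 fell. Fibronectin (Fn1) went from 183 to 275 (median 220) to 122 to 196 (median 165; -0.49 ± 0.06, adjusted p = 2.3e-08), and Pcdh19 fell by 0.58 (SE 0.09). Efnb2, an ephrin used in boundary formation, rose by 0.81. Off the lists, Cited1 (-0.83 ± 0.08) and Stmn2 (-1.65 ± 0.19) fell.

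Beside these changes the neuron list went from 17.5 to 87.7 (median 40.0) to 5.47 to 32.2 (median 17.8), and the anterior presomitic list from 130 to 359 (median 241) to 232 to 376 (median 302). Dcx and Dppa3 stayed at 0, and the part of these markers was not tested. In fits limited to cells assigned to Presomitic or to Somitic mesoderm, Hoxc6, Hoxa7, Hoxc9, Hoxa9, Hoxd9, Aldh1a2, Crabp1, Tcf15, Hey1, Slc2a1 and Fn1 passed in both. Hoxb9 passed in neither (0.15, adjusted p = 0.503, and 0.09, adjusted p = 0.737), and neither did Hoxb1, Hoxa2, Hoxb4, Hoxb6, Hes1, Notch3, Etv1, Etv4, Fgf3 or Fgfr1. Meox1 (0.53, adjusted p = 0.464), Foxc2 (0.48, adjusted p = 0.0645), Dnmt3b, Hoxd8, Nrarp, Stra6, Slc16a3, Efnb2, Pfkl, Rspo3 and Spred2 did not pass in Presomitic cells, and Fgf8 (-0.30, adjusted p = 0.0551), Hoxc8 and Wnt5a did not pass in Somitic cells. Of 67 genes followed, 34 passed in Presomitic and 48 in Somitic cells.

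A fit of the step from the earlier to the later day within each of the 3 pools that hold 2 days gave 1 change per 0.5 days over the second and the third experiment. Msgn1 fell by 0.83 on the log2 scale per step (SE 0.17, adjusted p = 2.7e-04). Its values at days 4.5 and 5 of the third experiment were 5.30 to 14.0 (median 8.16) and 0 to 7.5 (median 3.98). In the first experiment, which is outside this fit, 13 of 22 day-5 gastruloids had no Msgn1 UMI at all (16 UMIs over those 22 gastruloids). Sums were shallower there, with a median of 612870 UMIs per gastruloid against 1398080 at day 5 of the third. This defining gene of the posterior presomitic mesoderm was thus low at day 5 in both, and the part of depth in the 0 values was not tested.

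Pou5f1 fell by 1.59 per step (SE 0.18, adjusted p = 1.4e-10), from 54.8 to 109 at day 3.5 of the third experiment to 0 to 4.61 (median 2.15) at day 5. S100a10 fell by 1.57 (SE 0.14, adjusted p = 1.1e-13), and Tcf15 rose by 1.15 (SE 0.18, adjusted p = 2.3e-06). The changes of Msgn1, Pou5f1, S100a10 and Tcf15 passed without each pool and each lane in turn. A fit limited to cells of the most frequent assigned tissue, Intermediate mesoderm, held 13 gastruloids of the earlier and 17 of the later days, in place of 22 and 38. There Pou5f1 (-1.02) and S100a10 (-1.56) passed, while Msgn1 (-0.67, edgeR adjusted p = 0.101) and Tcf15 (0.68, adjusted p = 0.297) did not. Those of Hoxc9 (1.72), Hoxa7 (0.97), Hoxc6 (0.99) and Hey1 (1.07) passed with all pools and were lost without the pool of days 4.5 and 5.

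The difference between the steps (day 5 minus 4.5, less day 4 minus 3.5) was tested in a fit over both pools of the third experiment, chosen after seeing the data. It called 465 of 9700 genes (4.79%), 247 with a higher (2.55%) and 218 with a lower value (2.25%) in the second step, or 180 and 297 with library totals as the scale. The steps come from separate pools, which the fit cannot tell from time itself, although each step is measured within its pool. The authors' classes of gastruloids were also unevenly spread over the days, and their part was not tested. Of 11 retinoic acid genes 4 were lower and 0 higher (0 also at an unadjusted p under 0.05 and by DESeq2). Crabp1 rose in the first step and fell in the second (difference -1.79 ± 0.20, adjusted p = 4.5e-09). Aldh1a2 went the same way in value, 0.58 and then -1.14 (-1.72 ± 0.29, adjusted p = 5.4e-05). Of 18 glycolysis genes 8 were higher and 0 lower (0 also at an unadjusted p under 0.05 and by DESeq2), Gapdh among them (0.38 ± 0.07, adjusted p = 2.4e-04).

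Hox genes differed in both directions, 4 of 28 each way (3 higher and 5 lower with library totals). Hoxb9 changed more in the first step (difference -0.74 ± 0.21, adjusted p = 0.027), and Hoxd9 (1.06 ± 0.22, adjusted p = 0.0015), Hoxa7 (1.38 ± 0.41, adjusted p = 0.033) and Hoxc9 (2.05 ± 0.64, adjusted p = 0.047) more in the second. Of these only the Hoxd9 call held without each lane and gastruloid in turn. Fst (1.63 ± 0.30, adjusted p = 2.2e-04) and T (0.79 ± 0.17, adjusted p = 0.0014) fell mainly in the first step, T only while lane B of the earlier pool was kept.

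**Figure D5:**
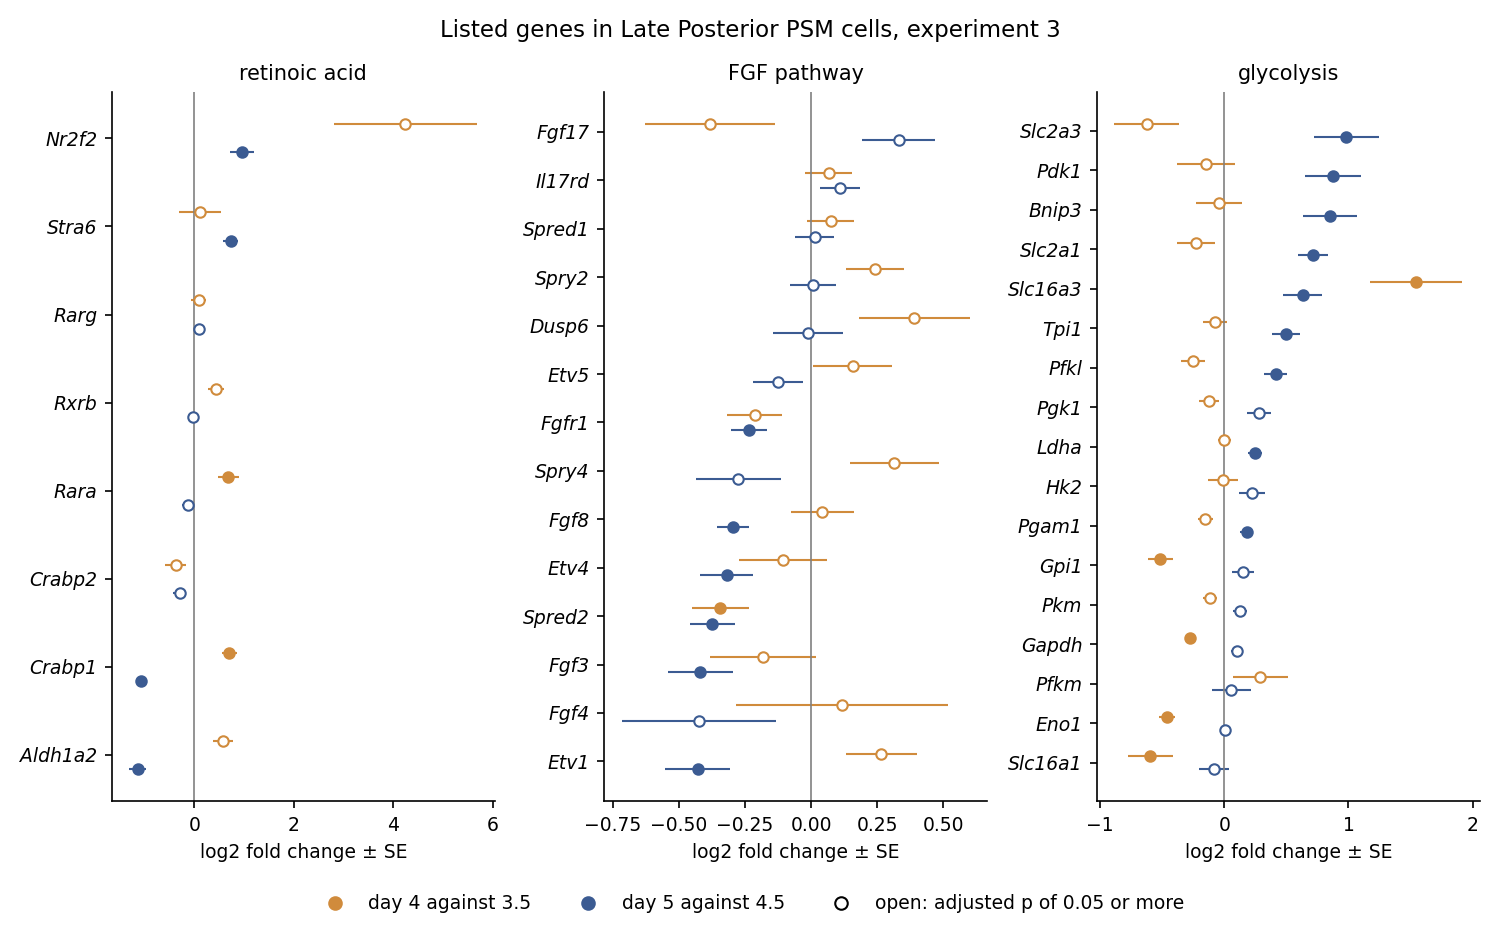
Log2 fold change (points) with its standard error (bars) for retinoic acid, FGF and glycolysis genes in Late Posterior PSM cells of the third experiment, day 4 against 3.5 in orange and day 5 against 4.5 in blue; open points did not pass an adjusted p of 0.05. Crabp1 is above 0 in the first step (0.70) and below it in the second (-1.08), and glycolysis genes lie mostly below 0 in the first and above it in the second.

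At day 5 the 2 experiments could be compared directly, with 16 gastruloids of the third and 22 of the first, and 4118 of 7692 genes differed (53.5%; 24.1% higher and 29.4% lower in the third). With library totals as the scale 12.6% were higher and 53.2% lower, so the direction of a small difference depends on the scale here. Experiment, lanes, depth and mitochondrial share all differ together there, so their parts cannot be told apart. Hoxb9 was at 139 to 260 (median 216) in the first and 128 to 234 (median 179) in the third. Its difference was -0.07 (adjusted p = 0.30) with TMM scaling and -0.26 (adjusted p = 1.3e-04) with library totals. Hoxa7 likewise passed with library totals alone (-0.29, adjusted p = 0.0011, against -0.10, adjusted p = 0.29), and Hoxd9 with TMM alone (0.25, adjusted p = 0.014, against 0.06, adjusted p = 0.58). Hoxa9 passed with neither (0.20, adjusted p = 0.35, and 0.01, adjusted p = 0.96). Hoxc9 was higher in the third with both (0.40 ± 0.09, adjusted p = 1.0e-04, and 0.21, adjusted p = 0.036). Hoxc6, at 71.4 to 158 (median 101) in the first and 52.9 to 111 (median 72.2) in the third, was lower with both (-0.26 ± 0.08, adjusted p = 0.0037, and -0.45, adjusted p = 1.0e-06). Of 12 Hox genes of groups 1 to 4, 7 were lower in the third (10 with library totals) and 0 higher with either (0 also at an unadjusted p under 0.05 with TMM), with Hoxd4 at -0.69 ± 0.06 (adjusted p = 2.8e-17).

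Glycolysis genes were lower in the third experiment in 15 of 18, with 2 higher, and their median of -0.43 stood against -0.04 over all genes. With library totals 16 were lower and 0 higher, with medians of -0.63 and -0.23. The 4 genes named next passed in the same direction on both scales. Slc2a1 was at 74.9 to 171 (median 126) in the first and 26.3 to 78.0 (median 55.9) in the third, almost without overlap (-0.90 ± 0.09, adjusted p = 1.7e-14). Slc16a3 was at 66.4 to 235 (median 183) and 38.4 to 135 (median 61.3; -1.04 ± 0.11, adjusted p = 2.8e-12). Tcf15 was at 28.6 to 148 (median 78.6) and 37.0 to 188 (median 145), higher in the third (1.21 ± 0.12, adjusted p = 1.1e-13). Fgf8 was at 61.3 to 161 (median 120) and 143 to 227 (median 160), also higher (0.69 ± 0.07, adjusted p = 1.4e-12).

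The second and the third experiment at the same day differed in 2920 of 9267 genes at day 4 (31.5%; 14.7% higher and 16.8% lower in the third) and 1987 of 6791 at day 4.5 (29.3%; 15% higher and 14.2% lower). Of 18 glycolysis genes at day 4, 9 were lower in the third and 0 higher by edgeR with TMM scaling, but 2 lower and 1 higher with library totals, where the split over all genes became 30.7% higher and 7.41% lower. At day 4.5, 6 of 16 were lower and 1 higher.

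Late Posterior PSM cells of neural and mesodermal day-5 gastruloids differed in 76 of 8896 genes (0.854%, with 0.382% higher and 0.472% lower in neural gastruloids). The fit covered both experiments with experiment as a term (6 and 4 neural, 7 and 8 mesodermal gastruloids). Neural sums held fewer of these cells, with medians of 22.5 against 72 in the first and 23 against 57 in the third experiment. The split of 34 higher and 42 lower became 43 and 26 with RLE scaling (DESeq2's size factors, within edgeR) and 52 and 42 with DESeq2. Gja1, the gap junction protein connexin 43, was at 216 to 302 (median 272) in mesodermal and 166 to 229 (median 193) in neural gastruloids of the first experiment, and at 211 to 278 (median 244) and 117 to 217 (median 133) in the third. It was lower in neural gastruloids (-0.54 ± 0.08, adjusted p = 5.9e-05), with a narrow overlap in both experiments. Crabp2 was at 40.0 to 137 (median 70.6) and 62.5 to 174 (median 151) in the first, and at 65.1 to 107 (median 83.7) and 110 to 157 in the third, and it was higher in neural gastruloids (0.77 ± 0.13, adjusted p = 5.1e-04).

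Hes7 was at 272 to 421 (median 358) and 152 to 312 in the first and at 292 to 368 (median 339) and 238 to 316 (median 290) in the third, lower in neural gastruloids (-0.35 ± 0.08, adjusted p = 0.011). Lmo2 (-0.95 ± 0.18, adjusted p = 0.0030) and Aldh1a2 (-1.11 ± 0.27, adjusted p = 0.033) were lower as well, although in the third experiment Aldh1a2 was at 16.9 to 204 in mesodermal and 49.2 to 82.9 in neural gastruloids. Spinal cord markers summed to medians of 26.7 and 27.7 in the first experiment and 24.0 and 28.3 in the third for mesodermal and neural gastruloids. The somite list stood at 148 to 381 (median 232) and 89.8 to 365 (median 184) in the first, and at 197 to 388 (median 259) and 108 to 288 (median 210) in the third, lower in its median in neural gastruloids in both with overlapping ranges. The neuron list stood at 11.3 to 23.8 (median 21.8) and 5.11 to 24.0 (median 11) in the first and at medians of 20.6 and 19.8 in the third. The part of these markers in the differences was not tested. Within the third experiment alone edgeR called 0 genes (697 at an unadjusted p under 0.05), and within the first it called 78. The calls of Gja1, Crabp2 and Lmo2 held without each lane in turn. That of Hes7 was lost without lane 2 of the first or lane C of the third experiment, and that of Aldh1a2 without any lane of the first or lane C of the third. A fit limited to cells assigned to Intermediate mesoderm, the most frequent tissue over all cells, held 7 mesodermal and 3 neural gastruloids in place of 15 and 10. At day 5 of the third experiment that tissue took only 9.73% of a gastruloid's cells on average. In this fit Aldh1a2 (-1.77, edgeR adjusted p = 0.011) was the 1 of 22 followed genes to pass. Gja1 was at -0.29, Crabp2 at 0.46, Hes7 at -0.57 and Lmo2 at -0.35.

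Gastruloids of the same day also differed among themselves. At day 5 the median biological coefficient of variation (the relative spread between gastruloids beyond counting noise) was 0.0568 over the 3250 genes with a mean of at least 50 CPM in the first and 0.0689 over 2735 such genes in the third experiment. The next 8 genes stood highest by the worse of their 2 ranks among the 2674 genes at 50 CPM or more in both. Aldh1a2 varied far more, at 0.394 and 0.344, with its levels spanning 15.3 to 267 in the first. Id3, a BMP target, was at 0.262 and 0.401, and Mesp1 at 0.276 and 0.316. Cdkn1c (0.223 and 0.252), the Notch target Hes5 (0.243 and 0.230), Egln1, a prolyl hydroxylase that senses oxygen (0.184 and 0.234), Crabp2 (0.209 and 0.219) and Tcf15 (0.232 and 0.203) followed among the ranked genes. These 8 ranked genes are given as a description of the spread, without a test. Genes under 50 CPM in either experiment were not ranked, and some varied as much, such as Id2 (0.282 and 0.401), Slc2a3 (0.284 and 0.389), Fst (0.247 and 0.413) and Tshz2 (0.209 and 0.293), which were chosen after their values were seen.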

How the data were processed

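Gastruloids were profiled by droplet 3' single-cell RNA sequencing (10x Genomics v3.1, per the labels' protocols). The deposited values are raw UMI counts per gene and cell barcode in 18 lane matrices, made with Cell Ranger 6.0.0 against mm10 per the submitters' processing notes; no source used here names the annotation. Cell type, gastruloid, day, gastruloid class and embryo assignment were taken from the authors' deposited cell table, which also holds cell cycle scores by the authors and a velocity pseudotime scaled by the authors as a fraction from 0 to 1, neither of which enters a result. Cells with several gastruloid barcodes or none were left out of the per-gastruloid sums and shares, but remain in the cell counts, the marker levels per type and the atlas assignment of all cells. No doublet caller was run.

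Counts were summed over the Late Posterior PSM cells of each gastruloid with at least 10 such cells (95927 to 1468856 UMIs per gastruloid in the first MULTI-seq experiment) and tested with edgeR 4.0.16 (quasi-likelihood, TMM scaling, filterByExpr, Benjamini-Hochberg over all genes tested, threshold 0.05) in R 4.3.3. DESeq2 1.42.0 and scaling by library totals were alternatives. Lanes are technical splits of the same gastruloids. Leaving out a lane also lowers the cells per gastruloid, so that some gastruloids drop below 10 cells and leave the fit. Gastruloids were grown in separate wells of 1 line, so p-values measure the spread between wells. Shares were compared by permutation with 100000 resamples (Python 3.11.15, scipy 1.17.1), adjusted over cell types, in gastruloids with at least 30 cells. Where a group was small, as with 8 against 16 gastruloids, all splits were used in place of resamples. The script was tested on simulated data: of 200 genes changed by 1 on the log2 scale, 80.5% were recovered for day 4 against 3.5, 95% for day 5 against 4.5 and 68.5% for the difference of these steps.

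Members and gene lists were chosen with earlier results of these data known. The text names, per comparison and list, the 4 called genes with the smallest p, the 8 largest rises and falls at 20 CPM or more, the markers, and genes named for their role. A few genes are counted in the lists but not reported here by name. Day-3 and day-3.5 lanes of the second experiment were not analysed here. Intervals cover counting error only.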

Additional observations from a re-analysis of the deposited data

Results flagged for a closer look

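Of 126 groups of 4 to 10 gastruloids examined for single extreme values, 7 had one gastruloid apart from the rest by Dixon's criterion; chance gives about 1 in 20. In the 4 day-3.5 gastruloids of the third experiment the lowest value stood apart for Crabp2 (61.5 CPM, next 126), Lef1 (437, next 486) and Nrarp (52.7, next 75.7). In the second experiment at day 4 the highest Pcdh19 value was 259 (next 174). At day 4.5 the highest Hmga2 value was 564 (next 493), the highest Msgn1 value 26.6 (next 11.6) and the lowest Hoxb9 value 113 (next 140.0).

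The change from day 4.5 to 5 differed from that from day 3.5 to 4 by a test of the difference itself in the third experiment. On the log2 scale the later step was lower than the earlier for Crabp1 (-1.79), Aldh1a2 (-1.72), Smoc1 (-1.46), Pcdh19 (-1.19), Hoxb9 (-0.74), Nrarp (-0.62), Foxc1 (-0.61), Dnmt3b (-0.52), Hmga2 (-0.51) and Lef1 (-0.32). It was higher for Hoxc9 (2.05), Fst (1.63), Hoxa7 (1.38), Hoxd9 (1.06), T (0.79) and Gapdh (0.38). The steps were measured in separate pools, so pool and time cannot be told apart. The calls of T, Foxc1, Hoxb9, Hoxa7, Hoxc9, Nrarp and Dnmt3b were lost when some single lane or day-3.5 gastruloid was left out, and those of the other 9 genes held. With library totals as the scale the Hoxc9 call was lost (2.00, adjusted p = 0.051).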

How the results depend on the processing

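With 10 cells drawn per gastruloid fewer genes were tested, such as 5296 in place of 9631 for day 4 against 3.5. At day 5 between experiments it was 2155 in place of 7692. With those cells edgeR called 220 genes for day 4 against 3.5, 82 for day 5 against 4.5 and 14 in the second experiment. It called 1137, 1384 and 660 between experiments at days 5, 4 and 4.5, 414 within pools, 20 between classes and 57 for the difference of the steps. In cells of the most frequent assigned tissue (Intermediate mesoderm, with fewer gastruloids) it called 253 for day 4 against 3.5 and 1 in the second experiment. It called 1909 and 601 between experiments at days 4 and 4.5, 186 within pools and 24 between classes. In Presomitic-assigned cells it called 138 and in Somitic-assigned cells 272, both for day 5 against 4.5 and within pools, which then rest on the same gastruloids. Without a filter on low counts the second experiment gave 146 and the classes 165, and with at least 20 cells the classes gave 20 and the difference 256. Within the third experiment the classes gave 0, against 78 within the first. The within-pool fit gave 668 without the day-3.5 and 4 pool.

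Leaving out each lane or day-3.5 gastruloid gave 443 to 757 genes for day 4 against 3.5 (443 without lane B), 286 to 351 for day 5 against 4.5, 33 in the second experiment, 3378 to 3708, 1947 to 2886 and 1345 to 1864 between experiments at days 5, 4 and 4.5, 1043 to 1259 within pools, 20 to 53 between classes and 239 to 418 for the difference. The share differences then ranged from -4.06 to 0.290 points in the second experiment (-1.04 to 1.54 among presomitic and somite cells) and from -3.47 to 0.735 between experiments at day 4. None of these passed its test in the main setting. On a centred log ratio scale the share differences turned to 0.955 (day 5 against 4.5), 0.124 (second experiment) and 1.17 (experiments at day 4).

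Directions turned for genes of the within-pool fit: Ccne1 to 0.069 in Presomitic-assigned cells, Mcm5 to 0.0082 and Fst to 0.29 in Somitic-assigned cells, Hoxd8 to -0.060, Crabp1 to 0.022 and Hoxd9 to -0.20 in the most frequent tissue, and Crabp1 to 0.15 and Hoxd9 to -0.22 without the day-4.5 and 5 pool. Between classes Naa16 turned to -0.10 in the most frequent tissue and Lef1 to 0.022 with 10 cells. For the difference Etv1 turned to 0.19 and Dnmt3b to 0.13 with 10 cells. No direction turned among the 52, 24 and 68 genes followed for day 4 against 3.5, the second experiment and day 5 against 4.5. The cause was not tested.

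Fits with too few gastruloids were not run: at least 20 cells, and Presomitic- or Somitic-assigned cells, for day 4 against 3.5; the latter also in the second experiment; the most frequent tissue for day 5 against 4.5, day 5 between experiments and the difference; and the second experiment, and day 4 between experiments, without lane 3 of pool B. No paired analysis was possible because the shared numbers are lane numbers, and each gastruloid is spread over all lanes of its pool.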
